A study of Mus musculus with 16 samples.

Results

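The respiratory chain is built from proteins of both the mitochondrial and the nuclear genome, and its transcripts are described here for RAW264.7 cells, a mouse macrophage line. Members were taken from the deposited gene table by symbol: mitochondrial-genome genes named mt-Nd, mt-Co, mt-Cyt or mt-Atp, and nuclear genes named Ndufa, Ndufb, Ndufc, Ndufs, Ndufv, Uqcr, Cox4 to Cox8 or Atp5, without assembly factors (Ndufaf) and pseudogenes. Of 98 matching rows, 89 had at least 10 counts in at least 4 libraries, out of 21965 genes in the table, of which 11365 pass the same filter. The 89 are 13 mitochondrial-genome and 76 nuclear genes, and all of them were tested. No measured difference entered the choice of members, but they and the comparisons were chosen with earlier results of these data known.

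The study gave macrophages oxLDL, tirzepatide or both. There were 4 libraries in each of 4 groups. One group received oxLDL at 50 µg/ml, one tirzepatide at 100 nmol/ml, one both agents, and the control culture medium as vehicle. The tirzepatide unit is as the labels print it, and nmol/l may be meant. OxLDL is oxidised low-density lipoprotein, which macrophages take up as they become foam cells, and tirzepatide is a drug peptide acting on the receptors for GIP and GLP-1. All groups share the cell line, high-glucose medium with serum and antibiotics, and RNA libraries enriched on mRNA capture beads. No treatment time is given. The libraries of each group are numbered 1 to 4, and the labels do not say what a number marks or whether the libraries came from separate cultures, so p-values measure the spread between these samples.

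Electrons from NADH enter the chain at complex I and pass through ubiquinone, complex III and cytochrome c to complex IV, which reduces oxygen. Complexes I, III and IV pump protons, and complex V, the ATP synthase, uses the returning protons to make ATP. The mitochondrial genome encodes core subunits of these 4 complexes, is present in many copies a cell and is transcribed as long RNAs that are cut into single messages, whereas the other subunits are encoded in the nucleus and imported. Activated macrophages are known to shift between glycolysis and respiration, and complexes I and III are sources of reactive oxygen species in them.

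Library totals ran from 15877278 to 17336019 expected counts, with 12954 to 13276 genes detected in a library. All 10 macrophage markers were detected, and their summed level was 21834 to 23144 TPM with oxLDL, 20345 to 21250 TPM with tirzepatide, 21404 to 23672 TPM with both and 17061 to 18365 TPM in control, led by Lyz2, the macrophage lysozyme. Single markers went both ways: against control, 2 of the 10 had a negative log2 change with oxLDL, 4 with tirzepatide and 4 with both. TPM scales a gene's counts by transcript length and by the size of the library. Summed TPM of 19 pancreatic acinar markers was 7.28 to 67.2 in the 12 treated libraries and 318, 170, 44.6 and 23.9 in controls 1 to 4, although the labels name no pancreas. Of these 19, 13 were tested, and 11 were called lower with oxLDL, 1 with tirzepatide and 11 with both than in control. Over all genes 4.54%, 4.08% and 8.94% were called in either direction. In each comparison 12 of the 13 changes were negative and 1 was positive, at 1.62, 2.80 and 2.58 in log2. By their acinar sums controls 1 and 2 stand apart, and calls against control that were lost or gained without them are named beside the result. Summed TPM of 8 muscle markers was 0 to 1.78.

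Among the sequences, those that bear on how well the mitochondrial genes can be told apart are shown first. In the GENCODE annotation of build GRCm38, mt-Atp8 and mt-Atp6 share 43 bases, which is 21.1% of the 204 bases of mt-Atp8, and mt-Nd4l and mt-Nd4 share 7 bases. Reads in a shared stretch cannot be given to one gene, so mt-Atp8, the shortest member, is the least certain. Capitals mark the shared bases at the end of the upstream gene, after 20 bases of its own.
mt-Atp8, last bases, shared with mt-Atp6 in capitals: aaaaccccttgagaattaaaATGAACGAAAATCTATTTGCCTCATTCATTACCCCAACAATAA
mt-Nd4l, last bases, shared with mt-Nd4 in capitals: caaaatctcaacctactacaATGCTAA

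The mitochondrial genes stood far above the nuclear ones. Over the 16 libraries the mitochondrial genes averaged between 988 TPM for mt-Nd3 and 48543 TPM for mt-Co1, the catalytic subunit of complex IV. The nuclear members averaged between 13.6 TPM for Cox6a2 and 884 TPM for Atp5f1b, the catalytic beta subunit of ATP synthase. The least abundant mitochondrial message was thus above every nuclear mean. The libraries were enriched on mRNA capture beads, and whether messages of the 2 genomes are captured alike was not tested, so TPM across genomes is given as a level in these libraries only.

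**Figure D1:**
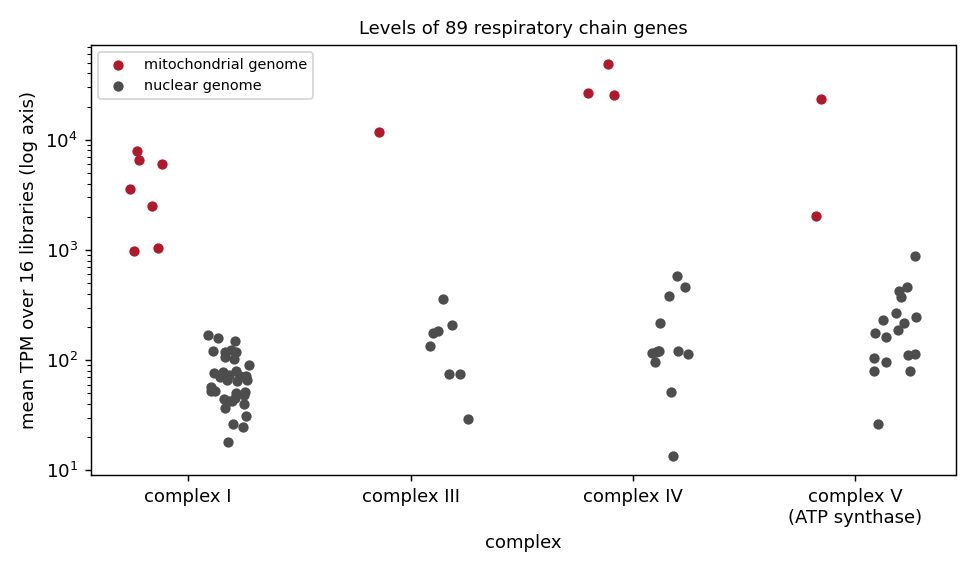
Mean TPM over 16 libraries (log axis) of each respiratory chain gene by complex, with mitochondrial-genome genes in red and nuclear genes in grey. The 13 red points lie between 988 and 48543 TPM and the 76 grey points between 13.6 and 884 TPM.

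Among the nuclear subunits, the ubiquitous isoforms carried the complex IV signal. Cox4i1, the common form of subunit 4, had 504 to 629 TPM, while Cox4i2, its hypoxia-associated form, had at most 0.17 TPM. Cox8a had 323 to 535 TPM, and Cox8b, its muscle form, was listed at 0 in all 16 libraries. Cox6a1 had 155 to 257 TPM and Cox6a2, the heart and muscle form, 10.6 to 16.1 TPM with 58 to 93 counts a library. The Cox7 pair had the same order, with Cox7a2 at 40.2 to 58.6 TPM and the muscle form Cox7a1 at 0 to 1.82 TPM. Cox7a2l, which helps join complexes III and IV, had 339 to 425 TPM. Ndufa4, named for complex I and now counted with complex IV, had 109 to 139 TPM, and its relative Ndufa4l2 at most 0.40 TPM.

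The 9 rows under the count filter were Cox4i2, Cox6b2, Cox7a1, Cox7b2, Cox8b, Cox8c, Ndufa4l2, Ndufb11b and a second identifier for Atp5po, and 6 of them were listed at 0 throughout. Within complex I, Ndufa12 was the highest nuclear member with a mean of 170 TPM and Ndufa5 the lowest with 18.2 TPM. Ndufs1, the iron-sulfur subunit that takes electrons early in complex I, averaged 63.9 TPM, and Ndufab1, the mitochondrial acyl carrier protein, 71.8 TPM. In complex III, Uqcrq averaged 361 TPM and Uqcr11 29.0 TPM. In complex V, Atp5if1, the inhibitor of ATP hydrolysis, averaged 422 TPM, and Atp5me was the lowest member with 26.3 TPM.

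The genomes were compared over groups first. Summed over the 13 mitochondrial genes, libraries 1 to 4 held 174340, 166512, 146588 and 157740 TPM with oxLDL. They held 165650, 163765, 155680 and 156096 TPM with tirzepatide, and 197812, 176030, 160698 and 153644 TPM with both. The controls held 205235, 174608, 154945 and 157022 TPM. Means were 161295 ± 11921 TPM with oxLDL, 160298 ± 5153 TPM with tirzepatide, 172046 ± 19555 TPM with both and 172953 ± 23259 TPM in control (SD, n = 4 each), and each pair of groups overlapped. In bulk RNA, a different number of cells of some kind and a different amount of message per cell cannot be told apart.

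The 76 nuclear genes summed to 10727 ± 165 TPM with oxLDL, 10707 ± 205 TPM with tirzepatide, 10479 ± 562 TPM with both and 10927 ± 309 TPM in control (SD, n = 4 each). These groups overlapped as well. The ratio of the mitochondrial to the nuclear sum was 15.04 ± 1.21 with oxLDL, 14.98 ± 0.70 with tirzepatide, 16.5 ± 2.83 with both and 15.9 ± 2.48 in control. In the 5 comparisons of groups the mean ratio differed by at most 10.4%, and the SD within the combination and the control group exceeded any difference between group means.

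**Figure D2:**
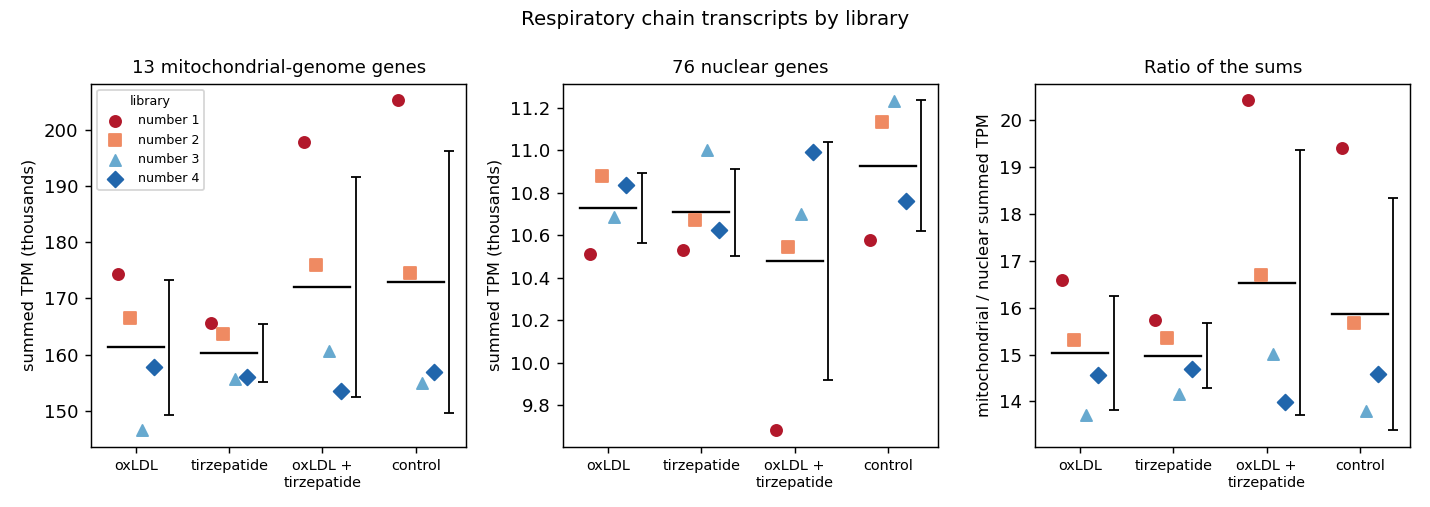
Summed TPM of the mitochondrial-genome genes, of the nuclear genes and their ratio in each library, by group; symbols give the library number, the line the group mean and the bar its SD (n = 4). In the left and right panels the libraries numbered 1 and 2 lie above those numbered 3 and 4 in all 4 groups, while the libraries of different groups overlap.

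The library number separated the mitochondrial transcripts. In each of the 4 groups, libraries 1 and 2 both had a higher mitochondrial sum than libraries 3 and 4, and library 1 had the highest. The mean over numbers 1 and 2 was above that over 3 and 4 by 12% with oxLDL, 5.66% with tirzepatide, 18.9% with both and 21.8% in control. Over all groups it was 14.6% higher, and the 8 libraries numbered 1 or 2 did not overlap with the other 8. The nuclear sum differed by -2.65% in the same comparison and overlapped, and library 1 had the lowest nuclear sum in 4 of 4 groups. The ratio of the sums was 18.1% higher with no overlap. TPM adds to a fixed total, so a larger mitochondrial share lowers the TPM of all other genes.

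In shares of all counts, the mitochondrial genes took 9.32%, 8.91%, 7.69% and 8.36% in oxLDL libraries 1 to 4. With tirzepatide the shares were 8.67%, 8.67%, 8.18% and 8.23%, and with both 10.5%, 9.37%, 8.38% and 8.10%. In control they were 11.2%, 9.53%, 8.39% and 8.32%. The widest 95% Wilson interval, that of control 1, ran from 11.15% to 11.19%. The nuclear members took 0.484% to 0.549%.

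Each gene was tested with edgeR with a term for group and for number, and an adjusted p under 0.05 makes a call here and below. The split of 1 and 2 against 3 and 4 was chosen with these data in view, so its calls are a description of the pattern and no independent evidence of it. Of the 13 mitochondrial genes, 12 were called higher in libraries 1 and 2, with log2 differences of 0.19 to 0.32 and a median of 0.27 over the 13. Of the 76 nuclear genes, 1 was called higher and 1 lower, with a median of 0.02. Over all 11319 genes tested, 2.93% were called in either direction, 1.17% higher and 1.77% lower, with a median of 0.00. A test with no chosen split, of any difference between the 4 numbers, called 9 of 13 mitochondrial and 0 of 76 nuclear genes, against 0.327% of all genes, or 37. Among the nuclear genes 11 had an unadjusted p under 0.05 by edgeR in that test, where 16.1% of all genes did, and DESeq2 called 5, and 377 of the 11319.

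The libraries did not overlap for a pair of complex IV genes. mt-Co3, a core subunit of complex IV, ran from 26346 TPM through a median of 27955 TPM to 32124 TPM in the 8 libraries numbered 1 or 2, and from 22760 through 24539 to 25380 TPM in those numbered 3 or 4. The sets did not overlap, and its log2 difference was 0.28 (SE 0.03, adjusted p = 4.5e-05 by edgeR). mt-Co2, which receives electrons from cytochrome c, ran from 25075 through 26804 to 32480 TPM and from 22501 through 24037 to 24856 TPM, again with no overlap (log2 difference 0.25, SE 0.03). mt-Co1 ran from 46660 through 49939 to 57415 TPM and from 44034 through 45925 to 49078 TPM. The sets overlapped, but libraries 1 and 2 were both higher than 3 and 4 within each of the 4 groups (log2 difference 0.19, SE 0.03).

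mt-Atp6, the ATP synthase subunit that forms part of the proton channel, was the third gene without overlap: from 22607 through 24692 to 30279 TPM in libraries 1 and 2, and from 21037 through 21786 to 22599 TPM in libraries 3 and 4. Only these 3 of the 11319 genes, 0.0265%, were higher in the 8 libraries with no overlap. mt-Cytb, the mitochondrial subunit of complex III, ran from 11267 through 12357 to 14779 TPM and from 9923 through 10880 to 11414 TPM (log2 difference 0.30, SE 0.04, adjusted p = 6.2e-05 by edgeR). Libraries 1 and 2 were above libraries 3 and 4 within each of the 4 groups for mt-Nd1, mt-Nd4, mt-Cytb, mt-Co1, mt-Co2, mt-Co3 and mt-Atp6. These are 7 of the 16 genes, 0.141% of those tested, that behaved so.

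The 7 mitochondrial complex I genes ran from 0.20 to 0.32 in log2 difference. mt-Nd1, which lies at the quinone site, ran from 5724 through 6517 to 7507 TPM in libraries 1 and 2 and from 4841 through 5487 to 6186 TPM in libraries 3 and 4 (log2 difference 0.32, SE 0.04). mt-Nd5, a proton-pumping subunit, ran from 6082 through 6585 to 8260 TPM and from 5846 through 6221 to 6395 TPM (0.20, SE 0.04). mt-Nd4l was the one mitochondrial gene not called, at a log2 difference of 0.23 (SE 0.08, adjusted p = 0.0929 by edgeR). mt-Nd2 and mt-Nd4, both proton pumps, each had 0.27, mt-Nd3 0.29 and mt-Nd6 0.25. mt-Nd6 is encoded on the other strand from the other 12, and no strand setting of the counting is given, so reads of its antisense RNA cannot be told apart from its own. mt-Atp8 had 0.32 with the widest error (SE 0.09).

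**Figure D3:**
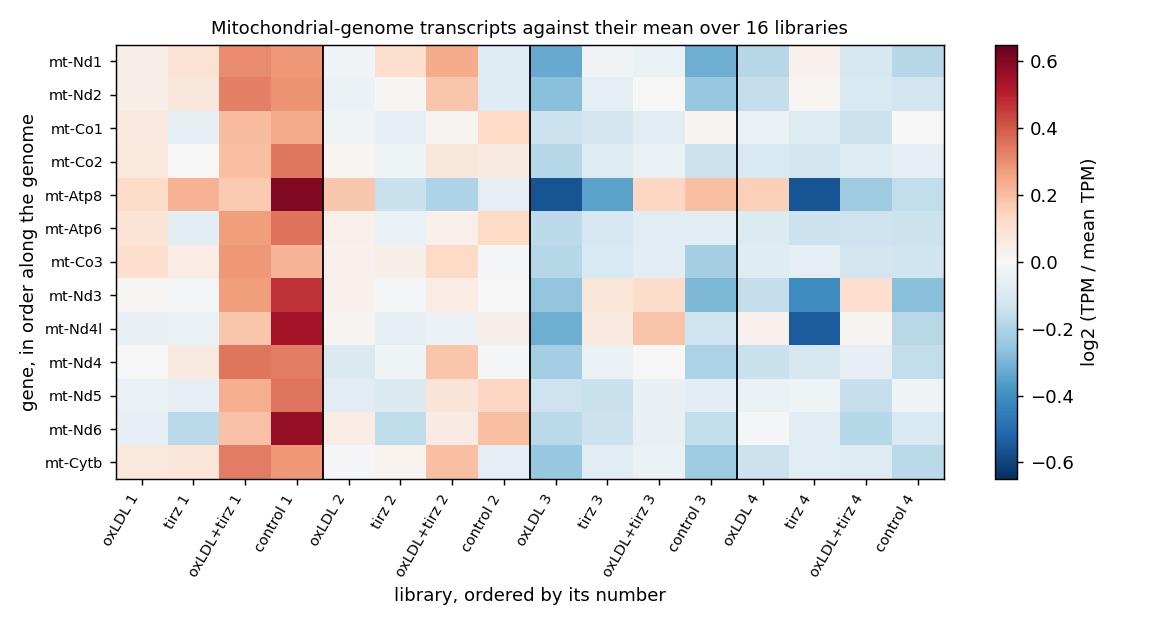
Each mitochondrial gene's TPM against its own mean over 16 libraries (log2 colour scale), with libraries ordered by number and genes by their place in the genome. The columns of control 1 and combination 1 hold the highest value of all 13 genes (8 and 5 genes), and oxLDL 3 the lowest value of 7 genes.

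Control 1 had the highest TPM of all 16 libraries for 8 mitochondrial genes and combination 1 for the other 5. Because control 1 also held the most acinar transcripts, the numbers were tested again without the 4 controls: 8 of 13 mitochondrial and 0 of 76 nuclear genes were called for libraries 1 and 2 against 3 and 4, among 41 genes in all. In the test of any difference between numbers without the controls, all 6 genes called were mitochondrial members. Without control 1 alone, 8 of the 10 genes called in that test were mitochondrial. Summed acinar TPM in combination 1 was 34.6, within the range of 7.28 to 67.2 of the other treated libraries. Whether acinar transcripts and the mitochondrial level are linked was not tested.

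The nuclear genes called by number were both in complex III. Uqcrb, a small subunit of its matrix side, ran from 164 through 188 to 200 TPM in libraries 1 and 2 and from 152 through 173 to 185 TPM in libraries 3 and 4, with a log2 difference of 0.17 (SE 0.04, adjusted p = 0.0295 by edgeR). Uqcrc1, a core protein of the same complex, ran from 107 through 130 to 140 TPM and from 129 through 139 to 163 TPM, at -0.12 (SE 0.03, adjusted p = 0.0474 by edgeR). Their libraries overlapped, and both calls were lost whenever the 4 libraries of any one group were left out. Across all nuclear members, none was above in TPM in all 4 groups and 1, Ndufa5, was below in all 4, where 2.31% of all genes were below. In expected counts Ndufa5 kept this order in the other groups but not with oxLDL, at 120, 114, 117 and 116 in libraries 1 to 4. It was not called by edgeR.

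The share of a gene's variance that lay between numbers, as a description over 16 libraries, had a median of 56.7% for the mitochondrial and 20.6% for the nuclear genes. Between the treatment groups the medians were 18.9% and 25.2% in the same order of genomes. mt-Co3 had the highest share by number among the mitochondrial genes at 79.5% and mt-Nd4l the lowest at 27.0%. The coefficient of variation over all libraries had a median of 12.02% for the mitochondrial genes, from 8.21% for mt-Co1 to 21.5% for mt-Atp8, and of 8.33% for the nuclear genes.

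OxLDL against control called no member. In edgeR, 0 of 13 mitochondrial and 0 of 76 nuclear genes passed, while 4.54% of all genes did. At an unadjusted p under 0.05 there were 1 mitochondrial and 6 nuclear genes, beside 2042 of the 11319, and DESeq2 called none. With the library number as a block, mt-Co1 was called lower, among 734 of 11319 genes. The median log2 change was -0.12 for the mitochondrial genes, all 13 of them negative. It was -0.04 for the nuclear genes, 56 of 76 negative, against 0.00 for all genes. The 13 mitochondrial genes share long RNAs and libraries, so their signs are not independent of each other. Control 1 held the highest mitochondrial sum, 205235 TPM, against 174608, 154945 and 157022 TPM in controls 2 to 4. Without control 1 the log2 difference in the ratio of the mitochondrial to the nuclear sum turned positive. Nuclear members at the ends of the range were Uqcr11 at -0.37 (adjusted p = 0.128 by edgeR), with 25.5 ± 2.4 TPM with oxLDL and 33.0 ± 2.6 TPM in control, and Ndufv1, which binds NADH in complex I, at 0.13 (adjusted p = 0.163 by edgeR). Within libraries 1 and 2 alone, mt-Nd5 and mt-Nd6 were called lower (-0.32 and -0.41), among 184 of 11374 genes called there. The only controls in that fit were controls 1 and 2, and the split was chosen with these data in view. Within libraries 3 and 4 no mitochondrial gene was called, among 254 of 11359.

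Of the 76 nuclear genes, 1 was called lower with tirzepatide than in control. Uqcr10, a small subunit of complex III, had 72.8, 64.8, 68.0 and 57.8 TPM with tirzepatide, against 79.6, 84.1, 95.6 and 72.5 TPM in control. The groups touch at one end, where tirzepatide 1 lies just above control 4. The log2 change was -0.36 (SE 0.09, adjusted p = 0.0244 by edgeR), and 4.08% of all genes were called in this comparison, 1.74% lower. The call was lost without control 2, control 3, tirzepatide 2 or tirzepatide 4, and without controls 1 and 2 together (adjusted p = 0.116 by edgeR), where 204 of 11486 genes were called. Of the nuclear genes 62 of 76 changes were negative with a median of -0.09.

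None of the 13 mitochondrial genes was called with tirzepatide in the fit by group, and DESeq2 called none. An unadjusted p under 0.05 by edgeR was found for 5, against 18.6% of all genes. The library number was not a term in that fit. With the number as a block, mt-Co1, mt-Nd5, mt-Nd6 and mt-Atp6 were called lower, among 750 of 11319 genes. In the fit by group, changes of the 13 genes ran from -0.39 for mt-Atp8 and -0.33 for mt-Nd6 to 0.08 for mt-Nd1. mt-Co1 was the only one whose groups did not overlap, with 46660, 46670, 44717 and 45771 TPM with tirzepatide, against 57415, 53187, 49078 and 48436 TPM in control (log2 change -0.21, adjusted p = 0.107 by edgeR). Over all genes 9.95% did not overlap in this comparison. Within libraries 1 and 2 alone, mt-Co1, mt-Atp6, mt-Nd5 and mt-Nd6 were called lower, with mt-Nd6 at -0.63, among 132 of 11374 genes called. The only controls in that fit were controls 1 and 2, and the split was chosen with these data in view. mt-Nd6 had 5317 TPM in control 1, against 4115, 3211 and 3354 TPM in controls 2 to 4. Within libraries 3 and 4, mt-Nd1 was called higher at 0.25 and no mitochondrial gene lower, among 56 of 11359.

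Among nuclear genes not called with tirzepatide, Atp5f1e, the epsilon subunit of ATP synthase, had the lowest change at -0.41 (adjusted p = 0.0709 by edgeR) with 68.1 ± 14.6 TPM with tirzepatide and 88.9 ± 3.1 TPM in control. Its groups did not overlap. Cox5b, a matrix-side subunit of complex IV, had the highest at 0.18 (adjusted p = 0.292 by edgeR), with 107 ± 5.5 TPM and 93.0 ± 3.9 TPM, also without overlap. In all, 10 of 76 nuclear members, or 13.2%, did not overlap, 4 higher and 6 lower, beside 9.95% of all genes.

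With both agents, 4 nuclear genes of complexes I, IV and V were called lower than in control. Over all genes 8.94% were called, 4.25% lower, so 4 of 76 is close to the share of lower calls among all genes. The 300-base promoter windows of these genes in the RefSeq tables of build GRCm38.p6, which reach from 250 bases before the transcript start to 50 after it, are shown because these 4 genes were called together. Capitals mark matches to motifs of regulators known to act on respiratory genes, on either strand: NRF1, as its exact palindrome or the same letters with the sixth base free, which includes the exact form, and the ETS family that GABP belongs to (CCGGAAG).
Cox6a1 promoter, chr5:115348909-115349208, minus strand: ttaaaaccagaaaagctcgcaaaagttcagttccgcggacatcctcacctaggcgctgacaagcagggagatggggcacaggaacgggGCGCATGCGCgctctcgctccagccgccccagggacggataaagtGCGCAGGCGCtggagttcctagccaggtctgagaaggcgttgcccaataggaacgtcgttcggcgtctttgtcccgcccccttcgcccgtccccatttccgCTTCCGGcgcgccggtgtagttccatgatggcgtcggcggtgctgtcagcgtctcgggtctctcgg
Ndufa6 promoter, chr15:82354242-82354541, minus strand: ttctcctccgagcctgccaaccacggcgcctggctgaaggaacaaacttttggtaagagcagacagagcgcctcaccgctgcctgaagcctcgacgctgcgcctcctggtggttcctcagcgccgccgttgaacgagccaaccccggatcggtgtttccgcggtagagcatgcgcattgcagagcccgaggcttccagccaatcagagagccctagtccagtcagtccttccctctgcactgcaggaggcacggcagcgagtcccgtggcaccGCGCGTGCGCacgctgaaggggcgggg
Atp5mc2 promoter, chr15:102670998-102671297, minus strand: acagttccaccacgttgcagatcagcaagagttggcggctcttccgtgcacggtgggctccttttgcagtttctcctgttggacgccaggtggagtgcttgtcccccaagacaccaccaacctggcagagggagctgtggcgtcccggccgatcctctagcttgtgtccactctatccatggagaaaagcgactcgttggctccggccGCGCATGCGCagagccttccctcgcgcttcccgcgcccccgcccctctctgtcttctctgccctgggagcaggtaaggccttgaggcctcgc
Cox7c promoter, chr13:86046746-86047045, minus strand: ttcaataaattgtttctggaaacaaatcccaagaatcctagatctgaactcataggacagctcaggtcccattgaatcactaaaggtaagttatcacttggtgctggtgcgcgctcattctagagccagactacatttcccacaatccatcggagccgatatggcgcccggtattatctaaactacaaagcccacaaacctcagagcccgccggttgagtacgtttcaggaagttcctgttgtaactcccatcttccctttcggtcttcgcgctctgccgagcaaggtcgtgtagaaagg

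The Cox6a1 window held 2 NRF1 matches, at bases 89 and 134 counted from its 5′ end, and an ETS match at base 235. Ndufa6 held 1 NRF1 match with the free base at 274 and Atp5mc2 an exact one at 209, while the Cox7c window held no match. Of the 76 nuclear members 62 matched the table, with 67 windows. The exact NRF1 palindrome was in 7.46% of these windows, against 0.971% of all 32851 windows and 2.17% of the 11373 windows of genes tested or matched as members. With the free base the shares were 23.9%, 4.60% and 10.5% in the same order. CCGGAAG was in 20.9%, 8.86% and 18.5%. The YY1 letters AAGATGGCG were in 10.4%, 1.4% and 3.24%, and the ERR letters AAGGTCA in 10.4%, 4.72% and 3.06%. A match describes letters in a window and not a bound site.

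Cox6a1, the common form of complex IV subunit 6a, had 155, 216, 194 and 215 TPM with both agents, against 199, 242, 257 and 236 TPM in control. Combination 1 was the lowest library, and the groups overlapped. The log2 change was -0.27 (SE 0.08, adjusted p = 0.0344 by edgeR). Cox7c, a small complex IV subunit, had 98.2, 117, 124 and 113 TPM with both, against 128, 138, 143 and 122 TPM in control, at -0.24 (SE 0.07, adjusted p = 0.0345 by edgeR). Control 4 lay below combination 3, and all other controls lay above the combination.

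Ndufa6, an accessory subunit of complex I, had 90.3, 106, 123 and 108 TPM with both, against 108, 120, 158 and 129 TPM in control. Its log2 change was -0.28 (SE 0.09, adjusted p = 0.0454 by edgeR). Atp5mc2, one of the genes for the c-ring subunit that turns with the proton flow, had 189, 206, 212 and 209 TPM with both, against 210, 240, 240 and 230 TPM in control, at -0.19 (SE 0.06, adjusted p = 0.0431 by edgeR). Controls 1 and 2 lay within the range of the combination for Ndufa6, and control 1 for Atp5mc2. All 4 calls were lost without control 2, without control 3, without combination 1 and when the fit held only the 2 groups, whereas leaving out control 1 kept all 4. Without control 1, 9 of 76 nuclear genes and 1450 of 11392 genes in all were called. Without controls 1 and 2, Cox6a1 and Ndufa6 were still called and Cox7c and Atp5mc2 were not. Within libraries 1 and 2 none of the 4 was called, and within libraries 3 and 4 Cox6a1 alone, at -0.27. This split by number was chosen with these data in view.

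**Figure D4:**
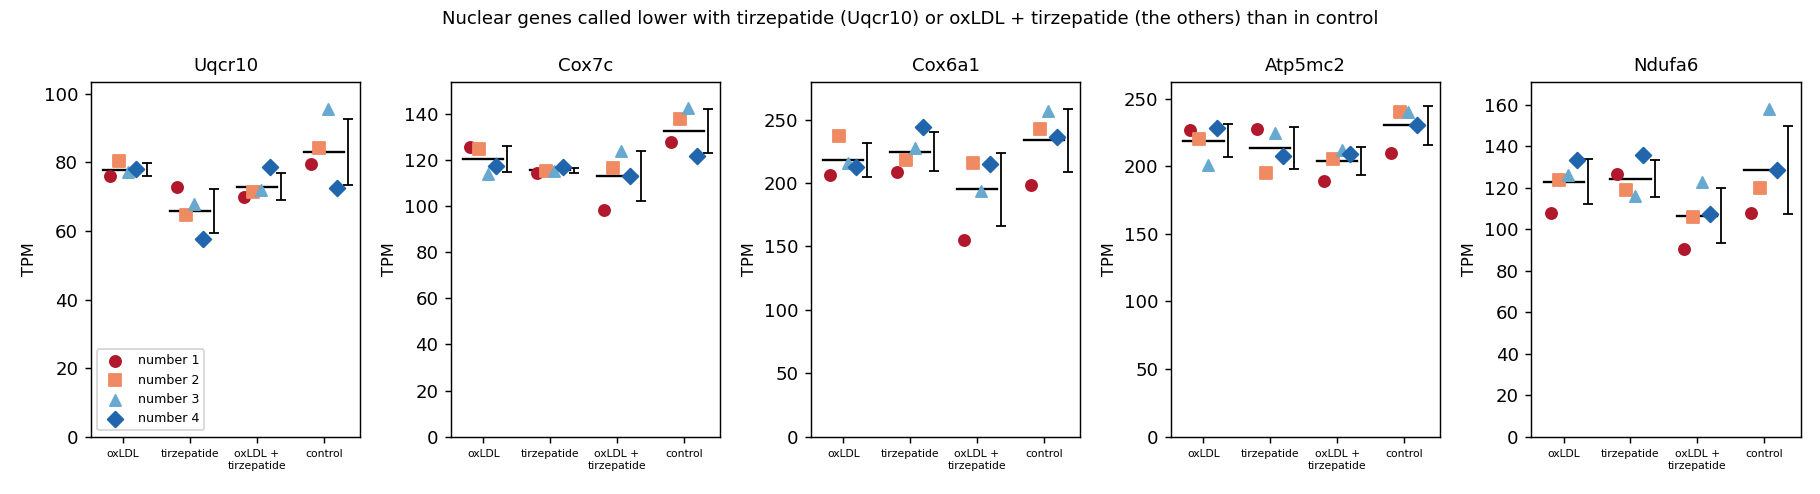
TPM in each library of Uqcr10, called lower with tirzepatide than in control, and of 4 genes called lower with both agents than in control; symbols give the library number, the line the group mean and the bar its SD (n = 4). For Cox6a1 and Ndufa6 the lowest point is combination 1, at 155 and 90.3 TPM.

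The mitochondrial genes gave no call in the combination against control, with 0 at an unadjusted p under 0.05 by edgeR, where 23.4% of all genes were, and 0 by DESeq2. Their median log2 change was -0.03, with 7 of 13 negative, and the nuclear median was -0.08, with 63 of 76 negative. The mitochondrial count stayed at 0 in 25 of 28 alternatives, among them the fit without the 4 libraries numbered 1. The 3 alternatives that changed it each left out control 1. Without control 1 alone, mt-Nd1, mt-Nd2, mt-Nd3, mt-Nd4 and mt-Cytb were called higher with both agents, at 0.26 to 0.33, among 1450 of 11392 genes called in either direction. The same 5 genes were called without controls 1 and 2, at 0.33 to 0.45, among 967 of 11486. Within libraries 3 and 4, mt-Nd1, mt-Nd3, mt-Nd4 and mt-Cytb were called higher, at 0.14 to 0.40, among 610 of 11359 genes called, and within libraries 1 and 2 none was, among 173 of 11374. The split was chosen with these data in view, and the fit of libraries 3 and 4 leaves out controls 1 and 2. mt-Nd3 had 1194, 1021, 1074 and 1066 TPM with both, against 1365, 990, 807 and 817 TPM in control, so that the 3 lower controls lay below all 4 combination libraries and control 1 above them.

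The combination against each single agent called no member by edgeR or DESeq2 in the fits by group. With the library number as a block, 2 nuclear genes were called against tirzepatide, among 378 of 11319 genes. Against oxLDL, 0.0353% of all genes were called, and 1 mitochondrial and 7 nuclear members had an unadjusted p under 0.05 by edgeR, with 10.1% of all genes. The median log2 change was 0.11 for the mitochondrial and -0.03 for the nuclear genes. Against tirzepatide, 1.54% of all genes were called, and 0 mitochondrial and 11 nuclear members had an unadjusted p under 0.05 by edgeR, with 13.8% of all genes. All 13 mitochondrial changes were positive, with a median of 0.14, and the nuclear median was -0.01. These 13 signs are not independent of each other, since the genes share long RNAs and libraries.

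The interaction, the departure of the combination from the sum of the single changes, was called for no member by edgeR or DESeq2 and for 0.0707% of all genes. All 13 mitochondrial values were positive, from 0.11 for mt-Co3 to 0.42 for mt-Nd4l, with 5 at an unadjusted p under 0.05 by edgeR, as for 5 nuclear genes and 10.3% of all genes. These comparisons share control, oxLDL and tirzepatide libraries, so their signs are not independent of each other. Nor are the signs of the 13 mitochondrial genes, which share long RNAs. Control 1 held the highest value of 8 of them and combination 1 that of 5, and both groups enter the interaction with a plus sign. Whether these libraries account for the positive values was not tested.

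**Figure D5:**
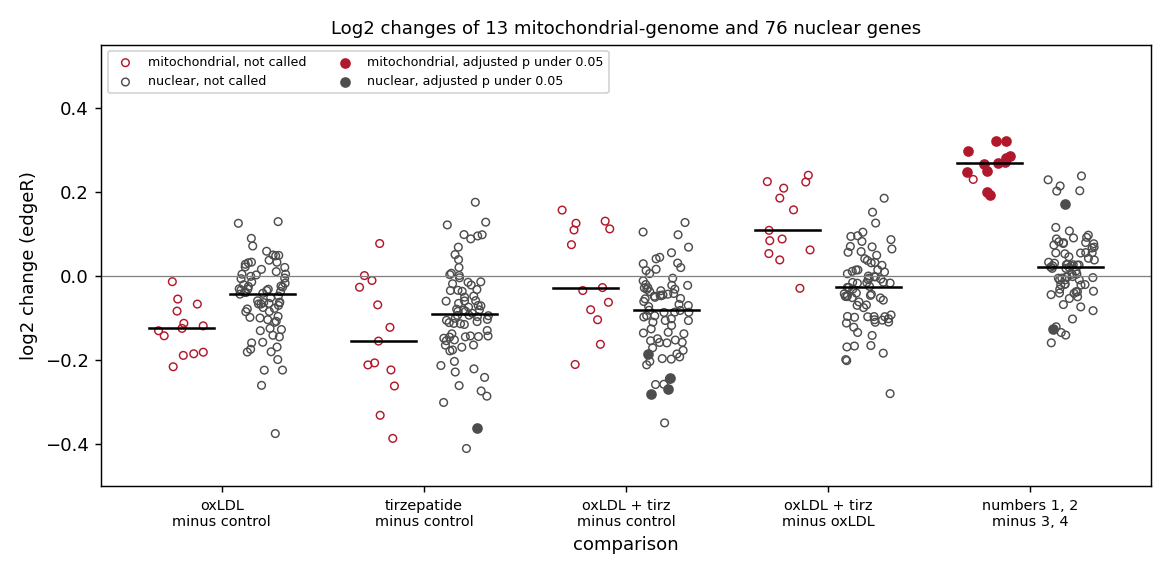
Log2 change of each mitochondrial (red) and nuclear (grey) gene in 4 group comparisons and between library numbers; filled points have an adjusted p under 0.05 by edgeR and lines are medians. The 12 filled red points, at 0.19 to 0.32, all lie in the comparison of library numbers.

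The genes that build or steer the chain, 137 of them tested, gave 1 call with oxLDL against control, 2 with tirzepatide, 3 with both and 4 by library number. These are 0.73%, 1.46%, 2.19% and 2.92% of them, beside 4.54%, 4.08%, 8.94% and 2.93% of all genes. Among the 4 subunits of complex II, which is wholly nuclear, none was called in any comparison; Sdha, its flavoprotein, had 109 ± 4.62 TPM with oxLDL, 112 ± 11.03 TPM with tirzepatide, 102 ± 1.92 TPM with both and 106 ± 14.5 TPM in control. None of the 19 tested electron carrier and ubiquinone genes and none of the 9 assembly factors of complexes II and V was called in any comparison. Of 16 complex I assembly factors, 1 was called by number, Ndufaf4 (0.18 higher in libraries 1 and 2), and none between groups. Of 32 tested assembly factors of complexes III and IV, Cmc1, a complex IV factor, was called lower with oxLDL than in control (-0.38, adjusted p = 0.0434 by edgeR) with no overlap. Uqcc2, a complex III factor, was called lower with tirzepatide than in control (-0.43, adjusted p = 0.0286 by edgeR). Neither call held when controls 1 and 2 were left out, with adjusted p = 0.0922 for Cmc1 and 0.207 for Uqcc2 by edgeR.

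Of 19 tested genes of mitochondrial DNA copying and transcription, 1 was called in any comparison. The call was with both agents against control, where 8.94% of all genes were called. Tefm, the elongation factor of the mitochondrial RNA polymerase, had 12.7 ± 0.43 TPM with both agents and 8.996 ± 1.09 TPM in control, with no overlap (log2 change 0.47, adjusted p = 0.0431 by edgeR). Its call was lost in 14 of 28 alternatives and kept in 5 of 16 fits with 1 library left out. Tfam, which packs and transcribes the mitochondrial genome, had a log2 difference between library numbers of 0.09 (adjusted p = 0.245 by edgeR). Polrmt, the polymerase itself, had -0.06 (adjusted p = 0.544 by edgeR). Of 23 genes of mitochondrial RNA processing, Rexo2, an exonuclease for short RNAs, was called higher with both than in control (0.20, adjusted p = 0.0226 by edgeR), though not without controls 1 and 2 (adjusted p = 0.0734 by edgeR). Trmt10c, a subunit of mitochondrial RNase P, was called 0.18 higher in libraries 1 and 2 than in 3 and 4, and Lrpprc, which stabilises mitochondrial messages, had 0.01 there.

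Of 15 tested nuclear regulators, Gabpb2, a partner of the ETS factor GABP, was called higher than in control with tirzepatide (0.18, adjusted p = 0.0215 by edgeR) and with both (0.19, adjusted p = 0.00758 by edgeR). Its mean was 48.9 ± 3.01 TPM with tirzepatide, 48.8 ± 2.14 TPM with both and 42.5 ± 1.61 TPM in control. Without controls 1 and 2 the call with both was kept and that with tirzepatide was not (adjusted p = 0.0677 by edgeR). Nrf1, which encodes the regulator NRF1, was called lower with both agents than with tirzepatide, at 30.7 ± 4.17 TPM with both and 38.6 ± 1.41 TPM with tirzepatide (-0.26, adjusted p = 0.0318 by edgeR). In that comparison 1.54% of all genes were called. The Nrf1 call was lost in 11 of 28 alternatives and kept in 9 of 16 fits with 1 library left out. By number, Gabpa was called 0.13 higher and Hcfc1 0.13 lower in libraries 1 and 2. Without control 1 these 2 calls and those of Ndufaf4 and Trmt10c were lost. Ppargc1a, the coactivator best known for driving respiratory genes in muscle and fat, had at most 6 counts in any library.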

How the data were processed

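RNA from 16 libraries of RAW264.7 cells, 4 in each of 4 groups, was enriched on mRNA capture beads and sequenced, per the labels' protocols. The authors deposited 1 table with unscaled expected counts for each gene in each library and, beside them, TPM as deposited by the authors. Per the submitters' processing notes, RSEM, StringTie 1.3.1, Bowtie2 2.2.8 and fastp 0.18.0 were used with builds GRCm39 and mm39; the annotation release is not given in the sources used here. Sequences came from GENCODE and RefSeq tables of the earlier build, so no coordinates of the table itself are given.

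Expected counts were rounded to whole numbers. Testing used edgeR 4.0.16 (R 4.3.3) after filterByExpr, which left 11319 genes, and TMM scaling. Quasi-likelihood tests (glmQLFit, glmQLFTest) came from a single model of the 16 libraries with group means. Library numbers were tested in a second fit with terms for group and number. P-values were adjusted by Benjamini-Hochberg over all genes tested. The fits were tested on simulated data. TPM served for levels and overlap between groups, with no pseudocount. Sums over members got no test.

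The members, the 12 gene and marker lists, the comparisons and the alternatives were chosen with earlier results of these data known. Of the lists, the one of mitochondrial-like pseudogenes had no gene in the table. Named genes were every mitochondrial member, called nuclear members, a set of isoforms and catalytic subunits, and members at the ends of level and change. Alternatives were other scalings, filters, limma 3.58.1, DESeq2 1.42.0, the library number as a block and libraries left out. Wilson intervals (95%) for shares of counts reflect counting error alone.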

Additional observations from a re-analysis of the deposited data

Results flagged for a closer look

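In 176 sets of 4 libraries of 1 group, for named genes and sums over members, 8 held a library whose gap to the nearest other was above the 95% critical value of Dixon's test, which chance gives in about 1 in 20 sets. mt-Atp8, which shares bases with mt-Atp6, had 1389 TPM in oxLDL 3, below 2227 to 2313 TPM in the other oxLDL libraries. Uqcrq, a small complex III subunit, had 367 TPM in oxLDL 2, above 342.5 to 345.4 TPM in the others, and 397.8 TPM in tirzepatide 2, above 383.9 to 384.9 TPM. Uqcrb had 193.2 TPM in oxLDL 1, above 169.8 to 173.3 TPM. Cox8a had 484.4 TPM in oxLDL 2, above 454.2 to 458.9 TPM, and 534.7 TPM in tirzepatide 4, above 452.1 to 466.2 TPM. Ndufa4 had 114.3 TPM in control 2, below 130.6 to 133.4 TPM in the other controls. Cox6b1, which holds complex IV dimers together, had 145.8 TPM in control 1, above 110.8 to 116.5 TPM. No sum over the members of either genome was among them.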

How the results depend on the processing

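The library-number pattern of the mitochondrial genes held in all 24 alternatives: 8 to 13 of 13 were called for numbers 1 and 2 against 3 and 4, and 6 to 13 in the test of any number, with 9 to 13 and 8 to 10 when 1 library was left out, where 45 to 616 of all genes were called for the split. mt-Nd1, mt-Nd2, mt-Nd4, mt-Cytb, mt-Co1, mt-Co2, mt-Co3 and mt-Atp6 were called in each of them, whereas mt-Atp8 and mt-Nd6 each lost the call in 14, mt-Nd3 in 9 and mt-Nd5 in 2. The nuclear count of 2, beside 332 genes in all, became 6 with no filter on low counts, beside 696, 4 with DESeq2, beside 568, 0 without the 4 libraries of any one group, and 0 to 7 when 1 library was left out, with 7, beside 616, without tirzepatide 3. In the test of any number it was 8 with no filter, beside 687 in all, 5 with DESeq2, beside 377, and 0 to 3 with 1 library left out. No direction reversed.

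The counts of called members between groups changed with the settings, and so did the counts over all genes. For tirzepatide against control 462 genes were called in all, 264 with only the groups compared, 204 without controls 1 and 2, 661 with DESeq2, and 132 and 56 within numbers 1 and 2 and 3 and 4. For the combination against control 1012 were called, 410 with only the groups compared, 1450 without control 1, and 173 and 610 within numbers 1 and 2 and 3 and 4. For tirzepatide against control the nuclear count of 1 was 2 with quantile normalization or no filter, 3 with DESeq2, and 0 with only the groups compared, without controls 1 and 2, or within numbers 1 and 2 or 3 and 4. With 1 library left out it was 0 to 4, with 4 without control 4 or combination 1. The mitochondrial count there was 4 with no filter, 4 within numbers 1 and 2, 1 within numbers 3 and 4, and 0 to 2 with 1 library left out. For oxLDL against control it was 2 within numbers 1 and 2. For the combination against control the nuclear count of 4 was 0 with only the groups compared, 1 without the 4 libraries numbered 1, 0 within numbers 1 and 2 and 1 within numbers 3 and 4. It was 0 to 9 with 1 library left out, with 9 without control 1 and 2 or fewer without oxLDL 2, oxLDL 4, combination 3 or combination 4. The mitochondrial count was 5 without controls 1 and 2, 4 within numbers 3 and 4, and 0 to 5 with 1 library left out. For the combination against tirzepatide the nuclear count was 1 within numbers 3 and 4 and 0 to 1 with 1 library left out. The cause of these changes was not tested. The log2 difference in the ratio of the sums moved by less than the SD pooled over both groups in each alternative, but its sign was not stable. Against control it was -0.07 with oxLDL and -0.07 with tirzepatide, and turned positive in both without control 1 (0.03 and 0.03) and without controls 1 and 2 (0.08 and 0.08). It was 0.06 with both, and negative without combination 1 or control 3, down to -0.05.

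Deviations from group means correlated between same-numbered libraries with a median of 0.0176 over 24 pairs, 5 above 0.1, and between unlike-numbered ones with a median of -0.0015 over 72 pairs, 7 above 0.1. Of 16 libraries, 6 correlated best with their own number, so the numbers were not taken as pairs. These correlations cover all genes tested. For the mitochondrial members the number held a median of 56.7% of the variance and the group 18.9%, so the block result matters most for them. With the library number as a replicate block, mt-Co1 was called lower with oxLDL than in control (-0.14), and mt-Co1, mt-Nd5, mt-Nd6 and mt-Atp6 with tirzepatide (-0.19 to -0.30), so that the mitochondrial count was 1 for oxLDL and 4 for tirzepatide against control, and the nuclear count 3 for tirzepatide and 6 for the combination against control and 2 for the combination against tirzepatide. Over all genes the block called 734, 750 and 1357 genes for oxLDL, tirzepatide and the combination against control. Leaving out libraries 1 together, or splitting by number, was chosen after seeing the data. Rows under the count filter were too shallow to test.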
